A study of Mus musculus with 13 samples.

Results

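The cytotoxic granule and type 1 effector genes followed here are 10 genes chosen by symbol, with earlier results of these data known, out of 19752 genes measured on the arrays. They are the granule genes Nkg7, Gzma, Gzmb and Prf1, the transcription factor genes Tbx21 and Eomes, the cytokine gene Ifng and the chemokine genes Xcl1, Ccl5 and Ccl4. Each of the 10 had 1 probe set with a single annotated symbol, so no choice between probe sets was needed. Their levels were read in sorted thymocytes of 2-week-old mice that were wild type (WT) or conditional knockouts (cKO) for the HMG box transcription factor Sox4. V2 cells were sorted as γδ thymocytes with the Vγ2 receptor chain, high for the immaturity marker HSA and negative for CD4 and CD8. DP cells were sorted as CD4+ CD8+ thymocytes. The 13 arrays held 8 V2 samples (4 WT and 4 cKO) and 5 DP samples (2 WT and 3 cKO), each labelled as of mixed sex. The sources used here do not give the driver of the Sox4 deletion or say whether WT mice carry it. V2 titles come in 2 spellings, here called V2imm (2 WT, 2 cKO) and immV2 (2 WT, 2 cKO), and the labels do not say whether these mark a batch.

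In a cytotoxic lymphocyte, granzymes are serine proteases kept in lysosome-like granules on the proteoglycan serglycin, and perforin, the product of Prf1, opens the target cell membrane to them. Nkg7 encodes a membrane protein of these granules that takes part in their release. The T-box factors T-bet (Tbx21) and Eomes drive this programme and Ifng in NK cells, CD8 T cells and the interferon-γ branch of γδ T cells. Many Vγ2 cells of the young thymus belong instead to the interleukin-17 branch of γδ T cells. Xcl1 attracts cross-presenting dendritic cells, and Ccl4 and Ccl5 encode chemokines that attract T cells and monocytes.

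The sorted populations were checked first. In log2 intensity V2 WT lay below DP WT in 7 of 7 measured DP markers and above it in 6 of 6 measured γδ markers. The array labelled DP cKO replicate 5 carries γδ markers and the array labelled V2 WT replicate 5 (immV2) carries DP markers, with Cd8a at 7.65 and 12.94. They are therefore shown apart, and the comparisons rest on the other 11 arrays (for V2, 3 WT and 4 cKO; for DP, 2 of each), with the fit of all 13 beside them. No label says that replicates are separate animals, so p-values measure only how these samples vary, and that variation may be technical. Sox4 itself differed by -0.51 (SE 0.38) between V2 cKO and V2 WT and by -0.25 (SE 0.49) in DP, neither of which passed. In V2 it read 8.71, 8.64 (V2imm) and 9.68 (immV2) in WT and 8.07, 9.60 (V2imm), 8.11 and 8.23 (immV2) in cKO. V2 cKO replicate 5 (V2imm), at 9.60, thus lay above 2 of the 3 WT arrays. Within V2imm, Sox4 differed by 0.16 (SE 0.40) between cKO and WT, and by -1.51 (SE 0.50, limma adjusted p = 0.961) within immV2. The sources used here do not place the Sox4 probe set inside or outside the deleted part, so its level is no check of the labels. Arrays give no detection limit, so 1179 olfactory and vomeronasal receptor genes, which thymocytes are not known to use, served as a background reference. Their 95th percentile lay between 6.27 and 6.83 on the log2 scale, depending on the array. A probe set at or under that range is not shown to be above background. In sorted bulk samples, fewer positive cells and less RNA per cell cannot be told apart.

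Nkg7, Gzma and Eomes were higher in V2 than in DP cells in both genotypes, and Xcl1 and Ccl5 passed as higher in cKO. Nkg7 and Gzma had the largest differences of the 10 genes. In log2 intensity Nkg7 read 11.39, 11.31 and 11.84 in V2 WT and 6.18 and 6.16 in DP WT. In V2 cKO it read 10.56, 12.07, 12.42 and 12.24, and in DP cKO 6.47 and 6.10. Every V2 array was thus far above every DP array, and the DP values sat in or under the background range. The difference between V2 WT and DP WT was 5.48 (SE 0.34, limma adjusted p = 6.17e-07), and between V2 cKO and DP cKO 5.54 (SE 0.32, adjusted p = 2.82e-07). Because the DP level is not shown to be above background, these differences have no exact size.

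Gzma, which encodes the tryptase granzyme A, read 11.49, 11.25 and 11.35 in V2 WT and 7.76 and 7.32 in DP WT. In V2 cKO it read 10.58, 11.26, 10.72 and 10.68, and in DP cKO 7.92 and 7.83. Its V2 and DP values did not overlap in either genotype. V2 WT exceeded DP WT by 3.81 (SE 0.23, limma adjusted p = 4.53e-07), a 14-fold difference in intensity. V2 cKO exceeded DP cKO by 2.93 (SE 0.22, adjusted p = 2.66e-06), a 7.64-fold difference. With the V2 arrays of each title set compared with DP separately, Nkg7 and Gzma passed in all 4 such comparisons (2 title sets, 2 genotypes), with differences of 5.03 to 6.05 for Nkg7 and 2.82 to 3.84 for Gzma.

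**Figure D1:**
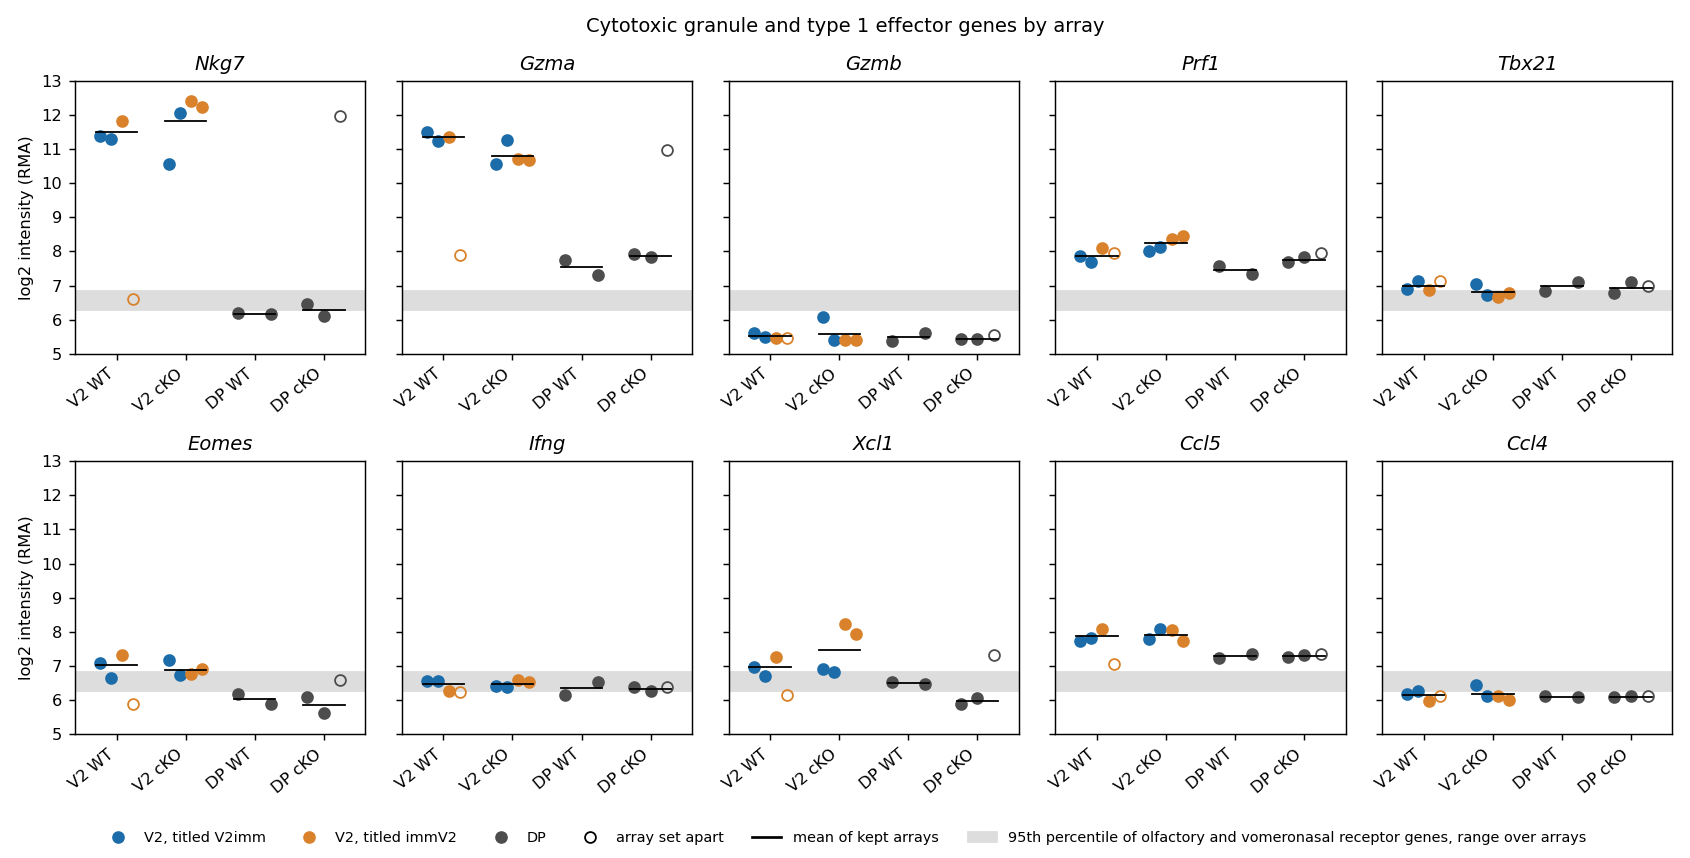
Log2 RMA intensity (y axis) of each of the 10 genes in every array, by labelled group (x axis); points are arrays, open points the 2 arrays shown apart, lines the mean of the kept arrays, and the grey band the range over arrays of the 95th percentile of olfactory and vomeronasal receptor genes. Nkg7 and Gzma separate V2 from DP by several units, Gzmb (at most 6.09) and Ccl4 (at most 6.44) stay low throughout, and the open points lie with the population they were not labelled as for Nkg7 and Gzma.

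The promoters of Nkg7 and Gzma are printed because these genes moved together between the populations, and that of Gzmb because it encodes a related granzyme that did not. Each line holds the 250 bases before the RefSeq start, 5′ to 3′ on the gene's strand, in build GRCm38.p6. Nkg7 is on chr7:43436888-43437137 (plus strand), Gzma on chr13:113100982-113101231 (minus strand) and Gzmb on chr14:56262335-56262584 (minus strand). Capitals mark matches, on either strand, to AGGTGT (a T-box core) and to TGTGGT or TGCGGT (RUNX cores); AACAAAG, a core shared by SOX and TCF factors, was also searched.
Nkg7: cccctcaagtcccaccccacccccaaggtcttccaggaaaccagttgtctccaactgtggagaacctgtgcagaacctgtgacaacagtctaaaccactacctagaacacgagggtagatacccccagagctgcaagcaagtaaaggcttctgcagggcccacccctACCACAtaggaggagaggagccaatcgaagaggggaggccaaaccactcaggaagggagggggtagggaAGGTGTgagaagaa
Gzma: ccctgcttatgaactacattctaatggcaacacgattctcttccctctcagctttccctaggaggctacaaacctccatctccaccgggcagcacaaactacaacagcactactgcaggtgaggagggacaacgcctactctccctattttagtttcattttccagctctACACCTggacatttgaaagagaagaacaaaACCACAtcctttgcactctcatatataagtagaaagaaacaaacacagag
Gzmb: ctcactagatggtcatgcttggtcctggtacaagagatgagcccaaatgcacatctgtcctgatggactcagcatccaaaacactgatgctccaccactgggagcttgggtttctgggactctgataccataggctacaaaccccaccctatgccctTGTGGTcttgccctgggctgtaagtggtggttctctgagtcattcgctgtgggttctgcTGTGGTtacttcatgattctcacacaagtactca
Of the 10 genes, 8 had a promoter in the RefSeq table; Ccl5 and Ccl4 did not. The T-box letters occurred in 3 of the 8 (Nkg7, Gzma and Prf1), against 11.8% of all 32851 promoters of that length. In Nkg7 they lie 9 to 14 bases before the start, and in Gzma 75 to 80 bases before it on the opposite strand. The RUNX letters occurred in 5 of the 8 (Nkg7, Gzma, Gzmb, Prf1 and Xcl1), against 18.6% of all promoters. The SOX and TCF letters occurred in 0 of the 8, against 5.0%. The letters searched were chosen with results of these data known, and the RUNX and T-box cores do not overlap in these windows.

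The other granule members did not follow Nkg7 and Gzma. Gzmb, which encodes the caspase-activating granzyme B, read 5.60, 5.49 and 5.45 in V2 WT, and 5.36 and 5.60 in DP WT. In V2 cKO it read 6.09, 5.39, 5.41 and 5.39, and in DP cKO 5.43 and 5.42. All 13 of its values were under the 95th percentile of the receptor genes on the same array. The V2 WT minus DP WT difference was -0.01 (SE 0.18), with a 95% interval from -0.40 to 0.38. Prf1 read 7.87, 7.68 and 8.09 in V2 WT, 8.01, 8.13, 8.36 and 8.46 in V2 cKO, 7.57 and 7.35 in DP WT, and 7.68 and 7.83 in DP cKO. Each V2 WT array was above both DP WT arrays, but the difference of 0.47 (SE 0.16, limma adjusted p = 0.138) did not pass, nor did that of 0.49 (SE 0.15, adjusted p = 0.0885) in cKO. The 2 arrays shown apart had Prf1 at 7.95 each, so this gene did not tell the populations apart in them.

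Of the T-box factor genes, Eomes differed between the populations and Tbx21 did not pass. Eomes read 7.07, 6.64 and 7.32 in V2 WT and 6.16 and 5.89 in DP WT, and 7.16, 6.72, 6.77 and 6.91 in V2 cKO against 6.08 and 5.61 in DP cKO. V2 was above DP in every array of both genotypes, by 1.0 in WT (SE 0.21, limma adjusted p = 0.0139) and 1.05 in cKO (SE 0.20, adjusted p = 0.00658). The DP values and 1 of the 3 V2 WT values were not above the 95th percentile of the receptor genes on their arrays, so the fold has no exact size. The WT difference no longer passed when any of 4 arrays was left out: it was 0.95 (adjusted p = 0.0667) without V2 WT replicate 4 (V2imm), 0.78 (0.147) without V2 WT replicate 3 (immV2), 1.14 (0.063) without DP WT replicate 3 and 0.87 (0.137) without DP WT replicate 5. The cKO difference fell to 0.81 (adjusted p = 0.155) without DP cKO replicate 4. Tbx21 stayed between 6.67 and 7.14 in all 13 arrays, and its V2 minus DP difference was -0.03 (SE 0.16) in WT, with a 95% interval from -0.38 to 0.33, and -0.13 (SE 0.15) in cKO.

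Among the secreted products, Xcl1 and Ccl5 were above DP in every V2 array, and Ifng and Ccl4 overlapped. Xcl1 read 6.96 and 6.69 in V2 WT of the V2imm set, 7.27 in that of the immV2 set, and 6.51 and 6.48 in DP WT. In V2 cKO it read 6.90 and 6.81 (V2imm) and 8.22 and 7.92 (immV2), and in DP cKO 5.88 and 6.04. V2 cKO thus exceeded DP cKO by 1.50 (SE 0.18, limma adjusted p = 1.95e-04), whereas V2 WT exceeded DP WT by 0.63 (SE 0.19, adjusted p = 0.0936) without passing. The interaction test of that contrast between genotypes gave 0.87 (SE 0.26, unadjusted p = 0.00573, adjusted p = 1), so the genotypes are not shown to differ. In DP cKO both values were under the background range, so this fold has no exact size. Without V2 WT replicate 3 (immV2) no immV2 WT array remained, so the adjustment for title set came from the cKO arrays alone. With that adjustment the WT difference was 0.94 (limma adjusted p = 0.0161), which is not a reading of the WT arrays by themselves. Set by set against DP cKO, Xcl1 was higher by 0.90 (SE 0.17) in V2imm cKO and by 2.11 (SE 0.17) in immV2 cKO, and both passed. Against DP WT it was higher by 0.33 in V2imm WT (SE 0.17, limma adjusted p = 0.459), which did not pass. The 1 immV2 WT array lay 0.78 above DP WT.

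Ccl5 read 7.72, 7.82 and 8.09 in V2 WT, 7.79, 8.07, 8.05 and 7.74 in V2 cKO, 7.22 and 7.35 in DP WT, and 7.27 and 7.31 in DP cKO. Its difference was 0.61 in WT (SE 0.17, limma adjusted p = 0.0641) and 0.62 in cKO (SE 0.16, adjusted p = 0.0416), so nearly equal values fell on either side of the threshold. The cKO call is not firm, since 12 of 22 alternatives did not give it, with adjusted p up to 0.452. Ifng read 6.54, 6.55 and 6.27 in V2 WT against 6.14 and 6.53 in DP WT, a difference of 0.11 (SE 0.15, 95% interval from -0.22 to 0.44). Only 6 of its 13 values were above the receptor genes' 95th percentile on the same array, so a small difference could be missed. Ccl4 stayed between 5.98 and 6.44 in all 13 arrays, under the receptor genes' 95th percentile on each, and differed by 0.01 (SE 0.13) in WT.

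Over the 10 genes, 3 passed as higher in V2 WT than DP WT and 0 as lower, where 3.2% and 1.67% of all 19752 genes passed in those directions. In cKO 5 passed as higher in V2 and 0 as lower, against 3.5% and 1.94% of all genes. The V2 WT arrays were all above the DP WT arrays for 6 genes, against 14.4% of all genes, and the same 6 genes (Nkg7, Gzma, Prf1, Eomes, Xcl1 and Ccl5) had every V2 cKO array above every DP cKO array, against 9.8%. The median V2 minus DP difference was 0.54 in WT and 0.55 in cKO, beside -0.02 and -0.01 over all genes. The 2 comparisons come from 1 fit, which shares its spread and its title set term between them, so they are not independent. With all 13 arrays as labelled, 0 of the 10 passed in either comparison with limma (11 and 7 of all genes passed, and 1672 and 1670 had an unadjusted p under 0.05). There Nkg7 differed by 4.12 (SE 1.58) in WT and 3.65 (SE 1.40) in cKO, Gzma by 2.96 (SE 0.93) and 1.90 (SE 0.82), and Eomes by 0.70 (SE 0.33) and 0.80 (SE 0.30).

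**Figure D2:**
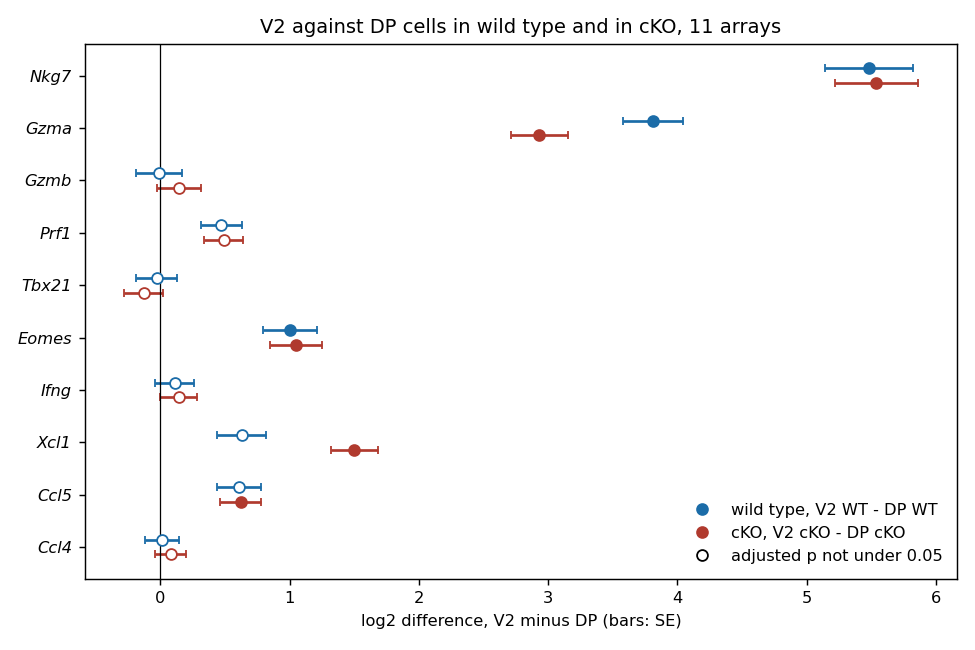
Log2 difference V2 minus DP (x axis) for each of the 10 genes (y axis), in WT and in cKO over the 11 arrays; points are limma estimates, bars their SE, filled points have an adjusted p under 0.05. Nkg7 (5.48 and 5.54) and Gzma (3.81 and 2.93) stand far from 0, and Gzmb, Tbx21, Ifng and Ccl4 lie within 0.15 of it.

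The 2 arrays shown apart followed their markers, not their labels, for Nkg7, Gzma and Xcl1. The array labelled DP cKO replicate 5 had Nkg7 at 11.97, Gzma at 10.98 and Xcl1 at 7.32, within the V2 cKO range. Its Eomes, at 6.57, lay between the highest DP value (6.16) and the lowest V2 value (6.64) of the 11 arrays. In the array labelled V2 WT replicate 5 (immV2), Nkg7 read 6.61, Gzma 7.89, Xcl1 6.13 and Eomes 5.88. Its Ccl5, at 7.05, was the lowest of all 13 arrays, while the array labelled DP cKO replicate 5 had 7.35, inside the DP range.

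In V2 cells, Sox4 cKO and WT arrays overlapped for all 10 genes. With limma 0 of the 10 passed, where 0% of all genes did, and 2 of the 10 (Gzma and Prf1) and 757 of all 19752 genes had an unadjusted p under 0.05. Groups that do not overlap were found for 3.45% of all genes. Gzma was lower in 3 of the 4 V2 cKO arrays (10.58, 10.72 and 10.68) than in any V2 WT array, while V2 cKO replicate 5 (V2imm), the cKO array with Sox4 at 9.60, had 11.26. Whether Gzma goes with the Sox4 level across these arrays was not tested. V2 cKO minus V2 WT was -0.53 (SE 0.19, 95% interval from -0.95 to -0.11, adjusted p = 0.999), at -0.45 (SE 0.26) within V2imm and -0.65 (SE 0.32) within immV2, which has 1 WT array. With the 13 arrays as labelled it turned to 0.32 (SE 0.76). For Prf1 V2 cKO minus V2 WT was 0.31 (SE 0.13, adjusted p = 0.999), at 0.30 within V2imm and 0.33 within immV2.

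Nkg7 varied more within V2 cKO than between the genotypes, from 10.56 to 12.42 among 4 arrays. V2 cKO minus V2 WT was 0.17 for Nkg7 (SE 0.29, 95% interval from -0.45 to 0.80), at -0.04 (SE 0.38) within V2imm and 0.49 (SE 0.46) within immV2. The lowest array, V2 cKO replicate 4 (V2imm), was also the array with the smallest upper quartile of intensities (332.7), and without it the difference was 0.60 (SE 0.16, adjusted p = 0.252); without V2 cKO replicate 5 (V2imm) it was -0.15 (SE 0.24). For Xcl1 the cKO arrays of immV2 lay above its WT array by 0.79 (SE 0.21), while in V2imm the difference was 0.03 (SE 0.17). The test of this difference between title sets gave 0.76 (SE 0.27, unadjusted p = 0.0143, limma adjusted p = 1). Xcl1 was also the 1 gene of the 10 that passed between the title sets themselves (immV2 minus V2imm 0.83, SE 0.13, adjusted p = 0.00711), where 1.83% of all genes passed.

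The remaining 6 genes had cKO minus WT differences in V2 from -0.15 (Tbx21, SE 0.14) to 0.10 (Gzmb, SE 0.15). Eomes differed by -0.14 (SE 0.18), Ifng by 0.02 (SE 0.13), Ccl5 by 0.02 (SE 0.14) and Ccl4 by 0.06 (SE 0.11). The 95% interval of each of these 6 stayed between -0.53 and 0.42.

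**Figure D3:**
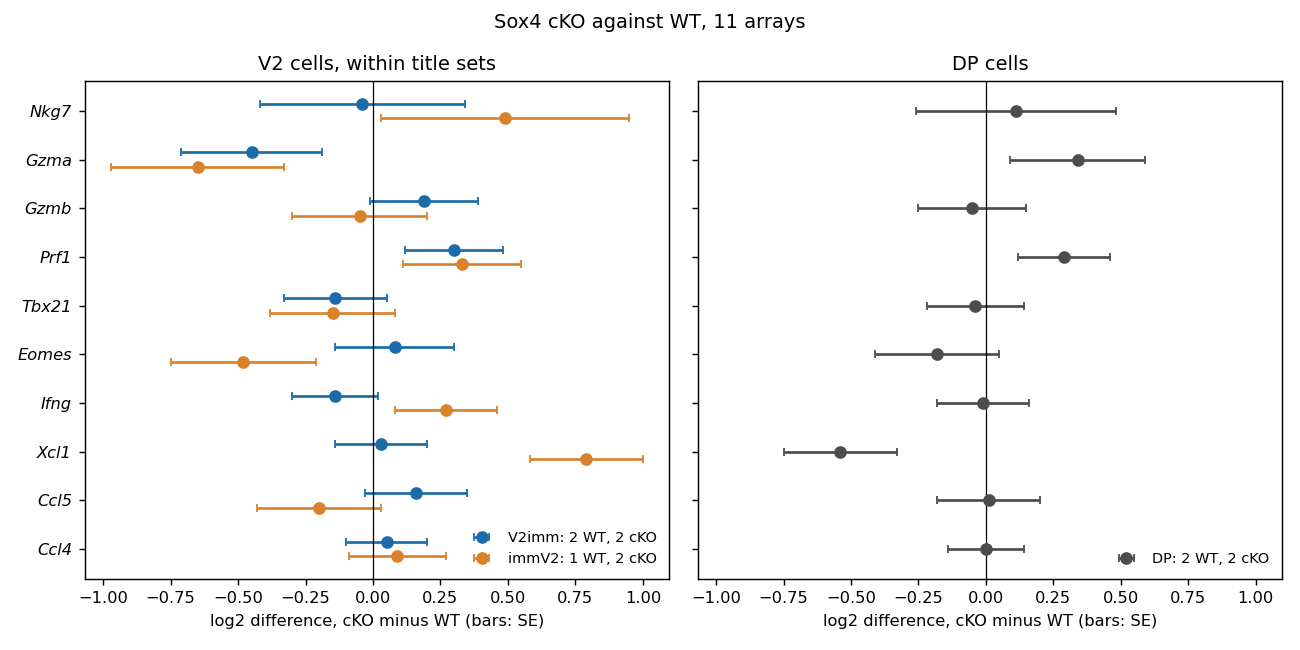
Log2 difference cKO minus WT (x axis) for each of the 10 genes (y axis), in V2 cells within each title set (left; V2imm with 2 WT and 2 cKO arrays, immV2 with 1 WT and 2 cKO) and in DP cells (right; 2 and 2); points are limma estimates and bars their SE. Gzma lies below 0 in both V2 sets (-0.45 and -0.65), Xcl1 above 0 in immV2 (0.79) but at 0.03 in V2imm and -0.54 in DP.

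Markers of maturity were read in the same V2 arrays, since the 2 immV2 cKO arrays had the highest Xcl1. Cd24a, which encodes HSA, read 10.38 and 9.46 in the immV2 cKO arrays, against 11.61 to 12.31 in the other 5 V2 arrays of the 11. The egress receptor gene S1pr1 read 10.86 and 11.54 there, against 8.23 to 9.71, and Ms4a4b 11.05 and 11.20, against 8.85 to 10.12. Of the other maturation genes, Klf2, Il7r, Ccr7 and Itgae had their highest mean in immV2 cKO. Cd44 did not: it averaged 8.2 there, 8.52 in V2imm cKO and 8.75 in V2imm WT, and read 8.07 in the immV2 WT array. Within immV2, with its 1 WT array, the cKO minus WT difference did not pass for Cd24a (-1.75, SE 0.39, limma adjusted p = 0.241), S1pr1 (1.49, SE 0.36, adjusted p = 0.341), Ms4a4b (1.01, SE 0.27, adjusted p = 0.507) or Xcl1 (adjusted p = 0.448). The maturation list also holds Cd24a, which falls with maturity, so after seeing the data the list was summed without that gene. The summed intensity of the other 7 measured genes, of 8, was 10105 to 12507 in immV2 cKO, 6435 in the immV2 WT array, 3970 to 4583 in V2imm cKO and 3999 to 4702 in V2imm WT. Within immV2 the cKO minus WT difference was 1.20 (SE 0.27) for Cst7 and 0.77 (SE 0.39) for Ctsw, which encode granule proteins, against 0.00 for each within V2imm, and none of these passed. The part of maturity in these values was not tested.

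**Figure D4:**
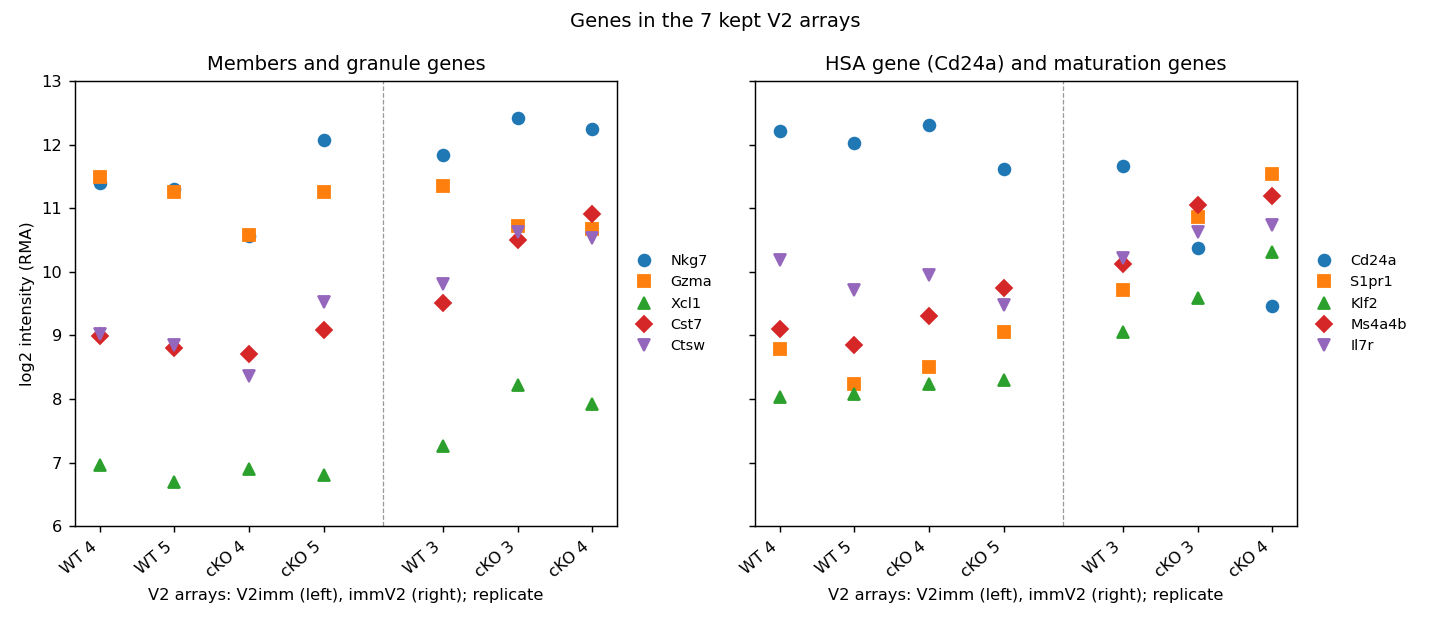
Log2 RMA intensity (y axis) in each of the 7 kept V2 arrays (x axis; V2imm left and immV2 right of the dashed line) for 3 of the 10 genes with the granule genes Cst7 and Ctsw (left) and for Cd24a and maturation genes (right); points are single arrays and are to be compared within a gene. The immV2 cKO arrays are highest for Xcl1 (8.22 and 7.92), Cst7 and S1pr1 and lowest for Cd24a (10.38 and 9.46).

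In DP cells 0 of the 10 genes passed between cKO and WT, where 0.0253% of all genes (5) did. The groups did not overlap for Gzma, Prf1 and Xcl1, which is 3 of 10 against 29.8% of all genes, as is common with 2 arrays each. Xcl1 differed by -0.54 (SE 0.21, 95% interval from -0.99 to -0.09, limma adjusted p = 1), Gzma by 0.34 (SE 0.25) and Prf1 by 0.29 (SE 0.17). The other 7 genes differed by -0.18 (Eomes, SE 0.23) to 0.11 (Nkg7, SE 0.37). With the array labelled DP cKO replicate 5 included, Nkg7 differed by 2.01 (SE 1.67) and Gzma by 1.38 (SE 0.98). The difference of the cKO effect between V2 and DP passed for 0 of the 10 and 0% of all genes (limma; 2 of the 10 and 372 of all genes had an unadjusted p under 0.05). It was 0.87 (SE 0.26) for Xcl1 and -0.87 (SE 0.32, unadjusted p = 0.0166) for Gzma, each with an adjusted p of 1.

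Other genes of granules and of type 1 responses were read from 4 lists written with earlier results of these data known. Of 18 genes of granule contents and processing, 4 were higher and 0 lower in V2 WT than in DP WT, with a median difference of 0.11. Over all 19752 genes 3.2% were higher and 1.67% lower in that comparison, with a median of -0.02. Those 4 were Cst7, which encodes the cathepsin inhibitor cystatin F (2.83, SE 0.27), Ctsw, the gene of cathepsin W (2.32, SE 0.31), Serpinb9, an inhibitor of granzyme B (1.16, SE 0.24), and Srgn, the gene of the granule proteoglycan serglycin (0.76, SE 0.17). Cst7 read 8.81 to 9.51 in V2 WT and 6.46 and 6.54 in DP WT. Serpinb9 read 5.93 and 5.96 in DP WT, so neither gene's DP level is shown to be above background. The other 8 granzyme genes on the list (Gzmc, Gzmd, Gzme, Gzmf, Gzmg, Gzmk, Gzmm and Gzmn) did not pass, with differences from -0.32 to 0.22. Of these 8, 7 lay at or under the receptor genes' 95th percentile in all 11 arrays and Gzmm did not. Srgn and Serpinb9 did not pass in 8 of 22 and 7 of 21 alternatives.

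Of 11 genes of granule transport and release, 0 were higher and 1 was lower, against 3.2% and 1.67% of all genes. The lower gene was the Chediak-Higashi gene Lyst (-0.89, SE 0.23, limma adjusted p = 0.0385), a call that 13 of 22 alternatives did not give. Rab27a (0.96, SE 0.28, adjusted p = 0.0813) and Unc13d (0.80, SE 0.26, adjusted p = 0.115), which dock and prime granules, and the motor gene Kif5b (-0.28, SE 0.20) did not pass. Of 17 transcription factor and cytokine receptor genes of type 1 cells, 8 were higher and 0 lower, against those same shares of all genes. Their median was 0.76, beside -0.02 over all genes. The 8 were the interleukin-2 and interleukin-15 receptor gene Il2rb (3.49, SE 0.26), Runx3 (3.04, SE 0.26), the interleukin-12 signalling gene Stat4 (1.47, SE 0.21), Zeb2 (1.23, SE 0.18), Id2, Irf1, Il12rb2 and Il18r1. The same 8 were higher in V2 cKO than in DP cKO, where 3.5% of all genes were. In DP WT Il2rb read 5.92 and 6.02 and Il18r1 5.26 and 5.43, under the background range. The DP WT mean of Zeb2 also lay under that range, so the differences of these genes have no exact size. In V2 WT Il18r1 read 5.97 to 6.70, in or under that range. The effector cell genes Hopx (-0.02, SE 0.13) and Prdm1 (0.03, SE 0.13) did not pass. Both lay at or under the receptor genes' 95th percentile in all 11 arrays, so small differences in them could not be seen.

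Of 13 genes of type 1 cytokines, chemokines, death ligands and their receptors, 1 was higher and 1 lower in V2 WT, against 3.2% and 1.67% of all genes. Tnfsf10, the gene of the death ligand TRAIL, differed by 1.66 (SE 0.25, limma adjusted p = 0.00118), and Fas, a death receptor gene, by -2.77 (SE 0.19, adjusted p = 1.15e-06). Fas read 6.61 to 6.84 in V2 WT and 9.40 and 9.57 in DP WT. Its V2 WT values lay in or just over the background range, so this difference has no exact size. Fasl (0.01, SE 0.16), Tnf (0.74, SE 0.22, adjusted p = 0.0777) and Lta (0.39, SE 0.14) did not pass. Of these, Fasl lay at or under the receptor genes' 95th percentile in all 11 arrays, so a small difference in it could not be seen. In V2 cKO against DP cKO, Ctsc, the gene of cathepsin C, which activates granzymes, also passed as higher (0.99, SE 0.25). The cathepsin L gene Ctsl (-1.70, SE 0.36) and the interferon-γ receptor gene Ifngr1 (-1.51, SE 0.22) passed as lower there. Ifngr1 averaged 10.73 in V2 cKO and 12.24 in DP cKO, against 11.78 in V2 WT and 12.18 in DP WT, where it did not pass. Between cKO and WT, 0 genes of these 4 lists passed in V2 or in DP, where 0% and 0.0253% of all genes did. For Ifngr1 the cKO minus WT difference was -1.57 (SE 0.23, limma adjusted p = 0.0698) within V2imm. Within immV2, with its 1 WT array, it was -0.81.

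**Figure D5:**
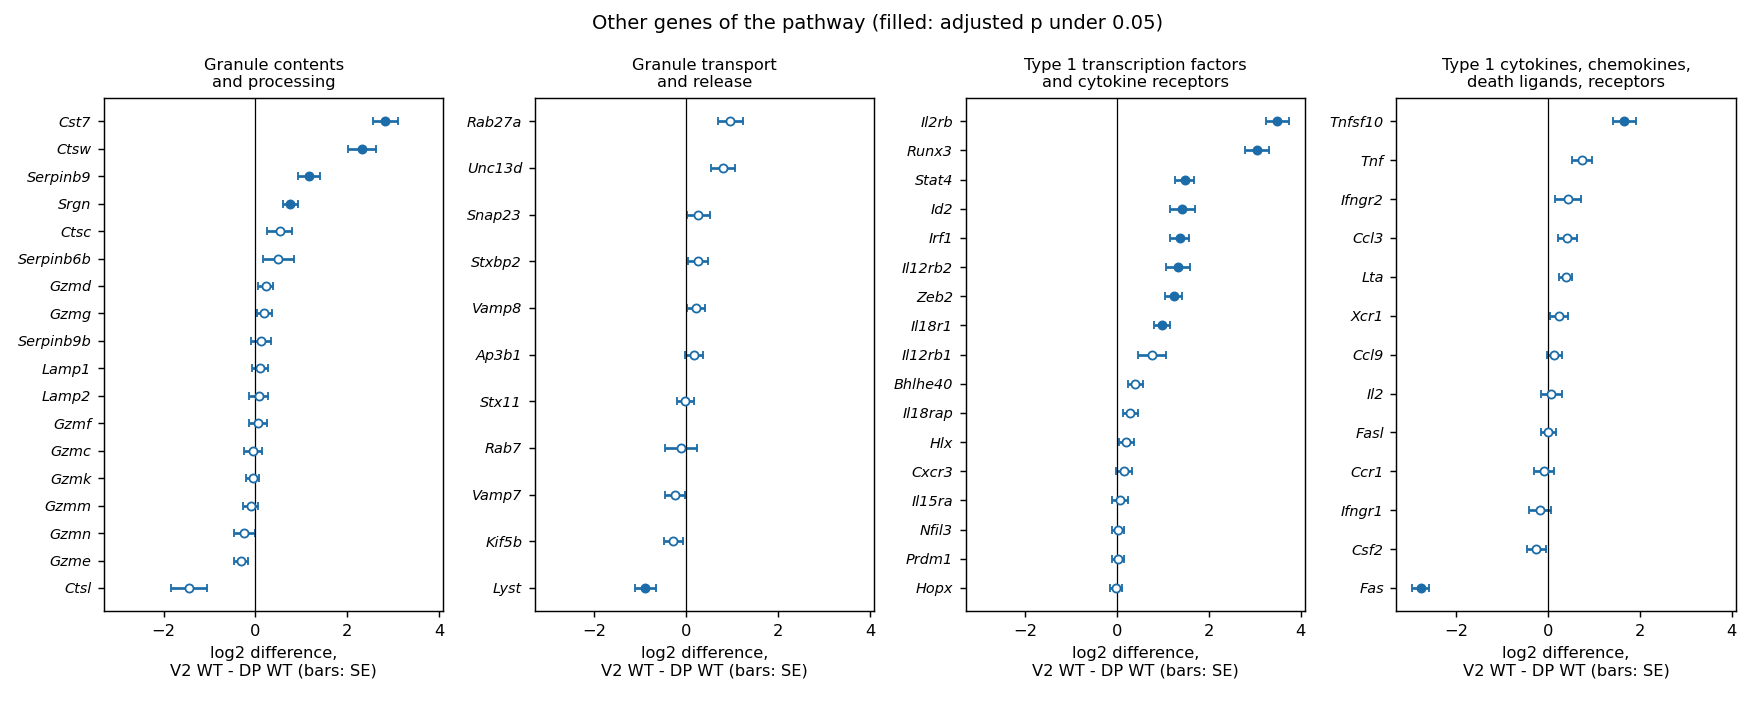
Log2 difference V2 WT minus DP WT (x axis) for the measured genes of the 4 pathway lists (y axis, ordered by difference), over the 11 arrays; points are limma estimates, bars their SE, filled points have an adjusted p under 0.05. Cst7 (2.83), Ctsw (2.32), Il2rb (3.49) and Runx3 (3.04) lie to the right, Fas (-2.77) to the left, and the granzyme genes near 0.

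Markers of NK and innate lymphoid cells, which use the same effector genes, were read beside these results. Of 11 measured markers on the list of 12, 8, among them Ncr1, Klrb1c, Klrk1 and Klrd1, were at or under the receptor genes' 95th percentile in all 11 arrays. Fcer1g was higher in V2 WT (0.99, SE 0.19), and Fcer1g and Klrd1 passed as higher in V2 cKO than in DP cKO. Fcer1g read 7.73 to 8.49 in V2imm arrays and 6.79 to 7.08 in immV2 arrays of the 11. Tyrobp and Fcgr3, the other markers outside those 8, averaged 7.52 and 6.39 in V2imm WT and read 6.71 and 6.0 in the immV2 WT array. The summed intensity of the list was 645 to 727 in V2imm WT, 449 in the immV2 WT array, 828 to 850 in V2imm cKO, 534 to 544 in immV2 cKO, 415 to 437 in DP WT and 424 to 465 in DP cKO. Macrophage and dendritic cell markers summed to 2660 to 2954 in V2imm WT, 773 in the immV2 WT array, 1379 to 5939 in V2imm cKO, 787 to 1155 in immV2 cKO and 823 to 932 in DP. The part of either list in the differences of the 10 genes was not tested.

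Genes with the most similar profiles were named for the 3 members that spanned at least 2 log2 units over the 11 arrays, by the root mean square difference between centred log2 values. Closest to Nkg7 were Atp8b4 (0.52), a lipid flippase gene, the binding protein gene Igfbp4 (0.77) and the ETS factor gene Etv5 (0.78). Closest to Gzma were the kinase gene Stk39 (0.33), the coronin gene Coro2a (0.35) and the HMG box gene Tox2 (0.35). Closest to Xcl1 were Gm12185 (0.23), Klhdc1 (0.24) and Pea15a (0.24). These genes were picked for their profile over the same 11 arrays, so that they separate V2 from DP cells as the 3 members do follows from the choice. As a description, V2 WT minus DP WT was 4.66 to 5.39 for the genes like Nkg7, 3.02 to 3.15 for those like Gzma and 0.58 to 0.98 for those like Xcl1. V2 cKO minus V2 WT was -0.80 for Etv5 (SE 0.19, limma adjusted p = 0.315) and 0.17 for Nkg7, and the difference between these genes was not tested.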

How the data were processed

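Each sample was 1 Affymetrix whole-transcript array of RNA from sorted mouse thymocytes. The deposited values are linear intensities per probe set, which the authors summarised by RMA (Affymetrix Power Tools), as the submitters' processing notes name them; the version and build are not given in the sources used here. RMA corrects background, normalises arrays and summarises probes, which compresses differences near background. Precision is limited by the number of arrays. Values ran from 6.16 to 23799.6, a linear scale, and were converted to log2 from the deposited intensities.

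Of 24922 probe sets, the 21425 with 1 annotated symbol were kept, and the brightest stood for each of 19752 genes. Limma 3.58.1 (R 4.3.3, lmFit and eBayes with intensity trend) fitted 4 group means and a title set covariate centred so that a V2 mean averages both sets, to 11 arrays. P-values, two-sided, were adjusted over all genes (Benjamini-Hochberg) and called under 0.05. The fit was tested on simulated data. Intervals come from the moderated fit. The members, lists and named genes (the members, Sox4, up to 4 genes per list with the smallest p in V2 WT against DP WT, genes called elsewhere, and 3 genes most like each member that spans 2 units, leaving out X, Y and receptor V genes) were chosen with earlier results of these data known; Hopx, Prdm1, Fasl, Tnf, Lta and the other granzymes were named after their values were seen. Promoter sequences are RefSeq's, GRCm38.p6. Alternatives covered the arrays, covariate, pairing, normalisation, pseudocount (32), filter, moderation, probe sets and each array left out; comparing each title set with DP was added after seeing the data. Figures used matplotlib 3.10.9 in Python 3.11.15.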

Additional observations from a re-analysis of the deposited data

Results flagged for a closer look

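Gzmb stood out in V2 cKO replicate 4 (V2imm), at 6.09 on the log2 scale against 5.39 to 5.41 in the other 3 V2 cKO arrays, a gap of 0.973 of the group's range, past Dixon's 95% critical value for 4 arrays. The same array had the highest 95th percentile of the olfactory and vomeronasal receptor genes, 6.83 against 6.27 to 6.64 in the other 12, and the lowest upper-quartile intensity, 332.7. After quantile normalisation Gzmb was 5.85 there and 5.46 to 5.49 in the other 3. Chance flags about 1 in 20 groups, and 10 groups were looked at.

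Among arrays outside the comparisons, the array labelled DP cKO replicate 5 had Nkg7 at 11.97 and Gzma at 10.98, each more than 1 log2 unit above the DP WT arrays (at most 6.18 and 7.76). That array also carries γδ markers, as the report gives.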

How the results depend on the processing

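Values below are counts of genes called, or log2 differences, and where a result changed the cause was not tested. For V2 WT against DP WT 962 genes were called, but 11 with all 13 arrays as labelled and 594 without the title set covariate, and 477 to 1575 with 1 array left out (606 and 639 without V2 WT replicates 4, V2imm, and 3, immV2; 477 without DP WT replicate 3; 1575 and 1478 without V2 cKO replicates 4 and 5, V2imm; 836 and 835 without DP cKO replicates 3 and 4). For V2 cKO against DP cKO 1076 were called, but 7 with 13 arrays, 637 without the covariate, 577 with only the groups compared, and 480 to 1632 with 1 array left out (480 and 544 without DP cKO replicates 3 and 4; 1632 without V2 cKO replicate 4, V2imm; 1031 without either DP WT array). For V2 cKO against V2 WT 0 were called, but 13 after quantile normalisation, 1 with genes under the median left out, 6 with robust moderation, and 0 to 44 with 1 array left out (44 when V2 cKO replicate 5 of V2imm was dropped, 7 and 5 when V2 cKO replicate 4 or V2 WT replicate 3 of immV2 was). For DP cKO against DP WT 5 were called, but 0 with 13 arrays or only the groups compared, 3 without the covariate, 9 after quantile normalisation and 0 to 14 with 1 array left out (14 without either V2imm cKO array, 8 without V2 WT replicate 3, immV2, 3 without DP cKO replicate 3, 0 without DP WT replicate 5). The difference of cKO effects gave 0, and 0 to 4 with 1 array left out. A lone array left in a group is assumed to vary like the other groups.

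Same-numbered arrays correlated at 0.27, -0.11, 0.52 and 0.18 in their deviations, so the numbers were not taken as pairs. With the replicate block by number 5 genes were called for V2 cKO against V2 WT, and with the block within the title set 34 there and 8 in DP. The block by number gave Ccl5 an adjusted p of 0.083 in V2 cKO against DP cKO, Ccl4 a difference of -0.01 in V2 WT against DP WT, and Ifng 0.04 in DP cKO against DP WT. The block within the title set gave Ifng 0.25 and Gzmb 0.07 in DP.

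Of the 10 genes, Nkg7 and Gzma, and Xcl1 in cKO, kept their V2 against DP calls under every alternative but the 13 arrays. Ccl5 in WT passed with only the groups compared (adjusted p = 0.0463), with the filter (0.0397) and without either V2imm cKO array. Signs turned in differences that had not passed. With 13 arrays, V2 WT minus DP WT was 0.01 for Gzmb and 0.04 for Tbx21, V2 cKO minus V2 WT was 0.16 for Eomes and 0.32 for Gzma, and DP cKO minus DP WT was 0.06 for Eomes and 0.01 for Ifng. In V2 WT minus DP WT, Gzmb was 0.03 without the covariate, 0.11 with it coded 1 and 0, 0.01 with only the groups compared and 0.02 after quantile normalisation, and Tbx21 was 0.05 with that coding. Quantile normalisation gave Ccl5 -0.02 in DP. Within V2imm, V2 cKO minus V2 WT was 0.08 for Eomes, -0.14 for Ifng, -0.04 for Nkg7 and 0.16 for Sox4. Within immV2 it was -0.20 for Ccl5 and -0.05 for Gzmb.

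With 1 array left out, V2 WT minus DP WT ranged from -0.13 to 0.11 for Gzmb, -0.16 to 0.11 for Tbx21, -0.08 to 0.31 for Ifng and -0.01 to 0.04 for Ccl4. V2 cKO minus DP cKO ranged from -0.03 to 0.27 for Gzmb and -0.29 to 0.03 for Tbx21. V2 cKO minus V2 WT ranged from -0.15 to 0.60 for Nkg7, -0.10 to 0.25 for Gzmb, -0.31 to 0.08 for Eomes, -0.14 to 0.07 for Ifng, -0.09 to 0.16 for Ccl5, -0.01 to 0.15 for Ccl4 and -1.06 to 0.16 for Sox4. DP cKO minus DP WT ranged from -0.07 to 0.30 for Nkg7, -0.17 to 0.07 for Gzmb, -0.20 to 0.12 for Tbx21, -0.42 to 0.06 for Eomes, -0.20 to 0.18 for Ifng, -0.06 to 0.07 for Ccl5 and -0.66 to 0.16 for Sox4. The filter on genes under the median gave no value for Gzmb, Tbx21, Eomes, Ifng, Xcl1 or Ccl4. Gzmb and Ccl4 lie in background on every array, so small changes in them could not be seen. Ifng was above the receptor genes' 95th percentile in only 6 of 13 arrays, so small changes in it could be missed too.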
